A study of Mus musculus with 8 samples.

Results

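The complement genes described here are the C1q chains C1qa, C1qb and C1qc, the convertase components C2, C3, C4b and Cfb, and the anaphylatoxin receptors C3ar1 and C5ar1. Every probe named for one of these genes on the arrays was taken, whatever its value, after names were updated through a RefSeq table. That gave 12 probes for 9 genes, out of 41174 probes and 21239 named genes on the array. C2, C3 and C3ar1 had more than 1 probe each, and probes of one gene read the same transcript and are not independent of each other. The RNA came from skin of the back of hairless mice of the SKH-1 strain, all male and 19 weeks old. All mice of both groups had received UVB on the back for 10 weeks. From 1 week later, 1% w/v enalapril maleate in 30 vol% ethanol (enalapril group) or the 30 vol% ethanol alone (vehicle group) was spread on the back 5 times a week for 2 weeks. Enalapril blocks angiotensin-converting enzyme and is best known as a drug against high blood pressure. No unirradiated skin was analysed here, so each difference is between enalapril and vehicle in UVB-exposed skin. Each group held 4 arrays, labelled as biological replicates 1 to 4.

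Complement is a cascade of blood and tissue proteins that marks microbes, immune complexes and dying cells. C1q, built from A, B and C chains, recognises the target and, with the proteases C1r and C1s, starts the classical pathway. C4 and C2 then form the convertase that splits C3, the central component, and factor B forms the corresponding enzyme of the alternative pathway. The released fragments C3a and C5a act on their receptors on myeloid cells, mast cells and other cells. The liver makes most plasma complement, whereas C1q comes mainly from macrophages and dendritic cells, and keratinocytes and fibroblasts can make C3 and factor B.

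The genes C1qb, C1qc and C1qa lie next to one another on chromosome 4 in the RefSeq gene order. Cfb and C2 are direct neighbours on chromosome 17, in the class III part of the major histocompatibility complex that also holds C4b, and C3 lies elsewhere on that chromosome. C3ar1 lies on chromosome 6 and C5ar1 on chromosome 7, beside C5ar2. Promoters are shown for the adjacent genes C1qb and C1qc, because the chains are compared on each array, and for C3, the central component. Each is the 250 bases before the annotated start in RefSeq GRCm38.p6, written along the gene's own strand. They are chr4:136886201-136886450, chr4:136892915-136893164 and chr17:57228137-57228386, all on the minus strand. Capitals mark letters that match a motif from a short list.
C1qb: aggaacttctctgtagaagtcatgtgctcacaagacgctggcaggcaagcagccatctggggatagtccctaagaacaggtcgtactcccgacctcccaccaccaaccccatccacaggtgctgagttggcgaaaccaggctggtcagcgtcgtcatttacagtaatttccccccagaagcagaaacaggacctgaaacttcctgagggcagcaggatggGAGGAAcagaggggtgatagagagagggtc
C1qc: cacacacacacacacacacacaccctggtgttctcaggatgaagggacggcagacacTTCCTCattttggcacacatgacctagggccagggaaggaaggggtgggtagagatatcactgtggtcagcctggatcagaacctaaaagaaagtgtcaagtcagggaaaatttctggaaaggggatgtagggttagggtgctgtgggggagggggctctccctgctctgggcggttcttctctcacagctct
C3: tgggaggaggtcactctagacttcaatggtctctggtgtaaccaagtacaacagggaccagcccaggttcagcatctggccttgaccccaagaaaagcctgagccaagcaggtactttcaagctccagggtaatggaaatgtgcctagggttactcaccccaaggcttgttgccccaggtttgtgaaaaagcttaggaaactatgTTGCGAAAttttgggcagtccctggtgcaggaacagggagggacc

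The motifs searched, on both strands, were GAGGAA (an ETS core with the bases preferred by the myeloid factor PU.1), TTGCGNAA (C/EBP), TTCNNNGAA (STAT), the interferon-stimulated response element and TATAAA (the TATA box). No overlap between these motifs was seen in the printed windows. GAGGAA stood 30 bases before the C1qb start and, as its reverse complement TTCCTC, 193 bases before the C1qc start. It was present in 23.3% of 32851 promoter windows of the same length, so a match is common. TTGCGNAA matched the C3 promoter 45 bases before the start, as TTGCGAAA, and was present in 0.67% of all windows. The C3ar1 window held TATAAA 235 bases before the start, a motif of 12.4% of windows, and the C5ar1 window held none of the 5. The STAT motif (7.02% of windows) and the interferon motif (2.98%) had no match in any of the 5 windows searched, those of C1qb, C1qc, C3, C3ar1 and C5ar1. C1qa, C2, C4b and Cfb were not among the promoters used here. A match describes the letters only.

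The level of a probe is the log2 of its processed intensity minus the 75th percentile of that array, so 1 unit is a 2-fold step and the level has no meaning against another probe. The 75th percentile lay between 821.5 and 1540 intensity units, and 67.1% to 72.7% of spots were well above background. The keratinocyte genes Krt5, Krt14, Krt1, Krt10, Trp63, Dsg3, Dsc3 and Lor, which mark skin, were well above background on 8 of 8 arrays. The 4 vehicle arrays shared 1 slide and 1 scan and the 4 enalapril arrays another, so slide, scan and treatment cannot be told apart. Enalapril 4 stood apart from the other libraries: its root mean square difference from the other enalapril arrays was 0.65 to 0.75 log2 units, against 0.37 to 0.46 among those 3. Its difference from the vehicle arrays was 0.61 to 0.63, within the 0.53 to 0.68 of the other enalapril arrays. Over all probes it was thus not the enalapril array nearest to vehicle. Counts of calls are therefore given with and without it. Across all probes, 2979 of 28580 tested passed an adjusted p under 0.05 in limma, a share of 10.4% (3.82% higher and 6.61% lower with enalapril).

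All 12 complement probes were well above background on 8 of 8 arrays and were tested. Of these, 0 rose and 1 fell, the probe for C1qc, beside the background of 10.4% called in either direction, so the share of members called is near the background. The log2 changes ran from -0.52 (C1qc) to 0.37 (a C3ar1 probe), 9 were below 0, and their median was -0.11 against -0.05 for all probes tested. Groups did not overlap for 1 of the 12 probes, beside 20.2% of all probes (13.1% lower and 7.12% higher with enalapril). The 3 probes with an unadjusted p under 0.05 in limma were those of the 3 C1q chains, beside 29.4% of all probes, so this share was not above the background either.

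**Figure D1:**
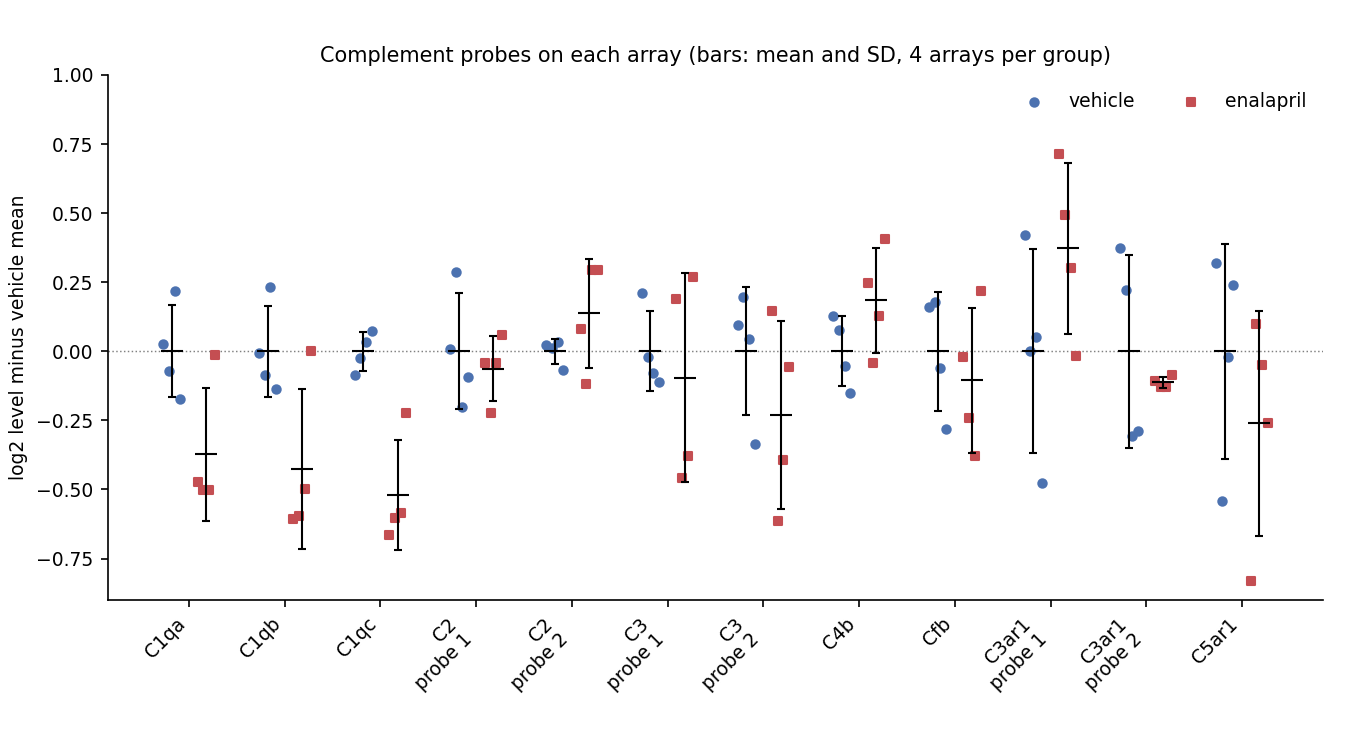
Level of each complement probe on each array, as the log2 level minus the probe's own vehicle mean (circles, vehicle; squares, enalapril), with the mean and SD of 4 arrays per group. The C1q chains have 3 enalapril squares well below the vehicle circles and 1 close to them. For the other probes the groups overlap, though the dimmer C2 probe has 3 squares above its circles and 1 below them.

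The C1q chains were the members with the lowest enalapril values relative to vehicle, by 0.38 to 0.52 log2 units (1.30-fold to 1.44-fold). C1qc, the C chain, fell, with an adjusted p of 0.0330 in limma, and C1qa and C1qb did not pass. On 3 of the 4 enalapril arrays the mean of the 3 chains was 0.53 to 0.59 log2 units below the vehicle mean, and on enalapril 4 it was 0.08 below. In bulk skin, fewer cells that make C1q and less C1q RNA per cell cannot be told apart.

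The C1qc levels (probe A_51_P102789) were 4.60, 4.66, 4.72 and 4.76 in vehicle 1 to 4 and 4.02, 4.08, 4.10 and 4.46 in enalapril 1 to 4. Every enalapril array lay below every vehicle array, with enalapril 4 closest to them. The group means were 4.69 ± 0.07 and 4.16 ± 0.20 (SD, n = 4), a log2 change of -0.52 ± 0.12 (SE). C1qc kept its call in 7 of 20 alternative settings and lost it in 13, among them quantile normalization (-0.33, adjusted p 0.0876 in limma) and the removal of any 1 array other than enalapril 4 (adjusted p 0.0640 to 0.0881). Without enalapril 4 the change was -0.62, with an adjusted p of 0.00566 in limma.

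C1qa, the A chain (probe A_51_P181451), had levels of 4.16, 4.06, 4.35 and 3.96 with vehicle and 3.66, 3.63, 3.63 and 4.12 with enalapril. The first 3 enalapril arrays were below all vehicle arrays, and enalapril 4 was within the vehicle range. The means were 4.13 ± 0.17 and 3.76 ± 0.24 (SD, n = 4), and the log2 change of -0.38 ± 0.15 (SE) had an adjusted p of 0.129 in limma. Without enalapril 4 the change was -0.50 and passed, with an adjusted p of 0.0195.

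C1qb, the B chain (probe A_51_P351860), read 2.82, 2.74, 3.06 and 2.69 with vehicle and 2.22, 2.23, 2.33 and 2.83 with enalapril. Again the array labelled enalapril 4 alone reached vehicle levels. The means were 2.83 ± 0.16 and 2.41 ± 0.29 (SD, n = 4), and the log2 change of -0.42 ± 0.16 (SE) had an adjusted p of 0.121 in limma. Without enalapril 4 the change was -0.57, with an adjusted p of 0.0129. Down-weighting arrays by their residual spread, in which enalapril 4 received the lowest of the 8 weights (0.243), gave -0.46, -0.53 and -0.58 for C1qa, C1qb and C1qc. The 3 chains passed with those weights, as did 29.9% of all probes. Without enalapril 4 the members called were again these 3 of 12, beside 24.7% of all probes. The share of members called was thus close to the background in that setting, and below it with array weights.

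The 3 chains were then compared on each array, since a difference within an array is free of array-wide scaling. Relative to its own vehicle mean, each chain's deviation lay within 0.06 to 0.24 log2 units of the others on the same array. On enalapril 1 the deviations of C1qa, C1qb and C1qc were -0.48, -0.61 and -0.67. On enalapril 4 they were -0.02, 0.01 and -0.23, so the C chain was the one that stayed below its vehicle range there.

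No pair of chains differed in its response past the threshold. The change of C1qa exceeded that of C1qb by 0.05 ± 0.04 log2 units (SE, 95% interval -0.06 to 0.16; exact permutation p 0.314, two-sided). For C1qa against C1qc the difference was 0.15 ± 0.10 (interval -0.09 to 0.44; exact p 0.229), and for C1qb against C1qc it was 0.10 ± 0.10 (interval -0.17 to 0.43; exact p 0.371). The adjusted p was 0.371 for each of the 3 pairs, and 4 arrays against 4 can reach no exact p below 0.0286. The intervals leave room for differences up to 0.44, so these values do not show that the chains respond alike.

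**Figure D2:**
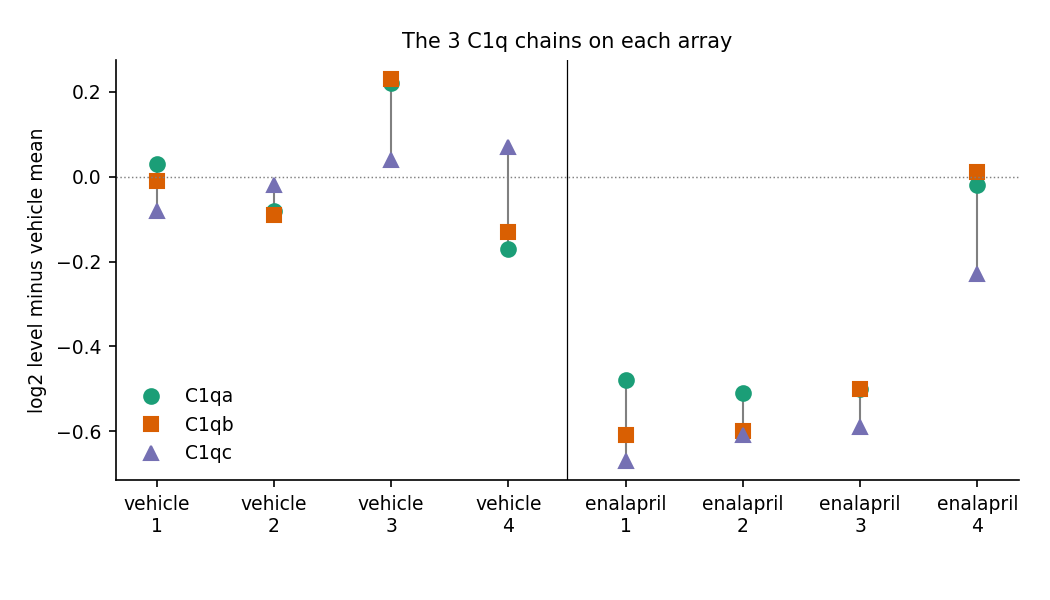
Deviation of C1qa (circles), C1qb (squares) and C1qc (triangles) from their own vehicle means, in log2 units, on each array. Grey lines join the lowest and highest chain on an array. Enalapril 1 to 3 lie between -0.67 and -0.48, and enalapril 4 between -0.23 and 0.01.

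The log2 changes of the classical and alternative convertase genes were nearer to 0 than those of the C1q chains. None of the 6 probes for C2, C3, C4b and Cfb passed the test in the main comparison or in any alternative run, and their log2 changes lay between -0.23 and 0.18. C3, the substrate of both convertases, was read by 10 spots of the probe A_51_P110301. Its levels were 6.54, 6.31, 6.25 and 6.22 with vehicle and 6.52, 5.87, 5.95 and 6.60 with enalapril. Enalapril 2 and 3 lay below the vehicle arrays, and enalapril 1 and 4 at their upper end. The SD among the 10 spots on an array was 0.0369 to 0.0587 log2 units, which covers spot error within an array only. The log2 change was -0.10 ± 0.19 (SE), adjusted p 0.775 in limma. A dimmer C3 probe (A_52_P133594), with 48.9 to 150 intensity units, read -3.46, -3.36, -3.51 and -3.89 with vehicle and -3.41, -4.17, -3.95 and -3.61 with enalapril. Enalapril 2 and 3 were its lowest arrays too, followed by vehicle 4, and it had a change of -0.23 ± 0.19 (adjusted p 0.452 in limma).

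C4b encodes C4, the first protein that the C1 proteases cleave. Its levels (probe A_51_P428708) were 4.36, 4.31, 4.18 and 4.08 with vehicle and 4.48, 4.19, 4.36 and 4.64 with enalapril. The groups overlapped, and the log2 change of 0.18 ± 0.12 (SE) had an adjusted p of 0.356 in limma. C4a, its neighbouring paralog, had a dim probe with a change of -0.23 ± 0.21 (adjusted p 0.498), and whether either probe also reads the other gene was not tested. Enalapril 2 was the lowest and enalapril 4 the highest enalapril array for C4b, as for C3 on its brighter probe.

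Cfb, the factor B gene, read 4.13, 4.15, 3.91 and 3.69 with vehicle and 3.95, 3.73, 3.59 and 4.19 with enalapril (probe A_51_P413866). Enalapril 2 and 3 were again below enalapril 1 and 4, and the groups overlapped. The log2 change was -0.10 ± 0.16 (SE), adjusted p 0.710 in limma. C2, the C4 partner in the classical convertase, had levels of 4.03, 4.31, 3.82 and 3.93 with vehicle and 3.98, 3.80, 3.98 and 4.08 with enalapril on its brighter probe (A_51_P497985). That probe had a change of -0.06 ± 0.13 (adjusted p 0.778), and its sign turned under quantile normalization (0.13). The dimmer C2 probe (A_52_P428699) read 1.82, 1.81, 1.83 and 1.73 with vehicle and 1.88, 1.68, 2.09 and 2.09 with enalapril, a change of 0.14 ± 0.12 (adjusted p 0.473 in limma). Its vehicle arrays were tightly grouped, and enalapril 1, 3 and 4 lay above them.

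The receptors were read by probes of low intensity. C3ar1, the C3a receptor, had levels of -1.45, -1.87, -1.82 and -2.35 with vehicle and -1.16, -1.38, -1.57 and -1.89 with enalapril on its brighter probe (A_51_P282557). Enalapril 1 and 2 exceeded all vehicle arrays and the other two did not, for a log2 change of 0.37 ± 0.22 (SE, adjusted p 0.288 in limma). The other C3ar1 probe (A_52_P81345) read -1.97, -2.12, -2.65 and -2.63 with vehicle and -2.45, -2.47, -2.47 and -2.43 with enalapril. Its enalapril arrays were nearly identical and lay inside the vehicle range, with a change of -0.11 ± 0.17 (adjusted p 0.689). The changes of the C3ar1 probes differed by 0.49 ± 0.21 log2 units (SE, exact permutation p 0.0571, two-sided, adjusted over 3 probe pairs 0.171). The corresponding differences were -0.20 ± 0.12 for C2 (adjusted exact p 0.214) and 0.14 ± 0.12 for C3 (0.314).

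C5ar1, the C5a receptor (probe A_51_P279542), read -4.11, -4.97, -4.45 and -4.19 with vehicle and -5.26, -4.33, -4.48 and -4.69 with enalapril. The lowest array was enalapril 1, and the other enalapril arrays lay inside the vehicle range. The log2 change was -0.26 ± 0.25 (SE, adjusted p 0.524 in limma). The probe was dim, at 27.9 to 70.5 intensity units. In simulated data for this comparison, 2% of probes shifted by 0.5 log2 units were called and 60% of those shifted by 1. Only a small part of the probes was shifted there, whereas 10.4% of probes were called in the real comparison. The cut-off on the unadjusted p was therefore stricter in the simulation, and these shares do not give the chance of a call for the C1q changes.

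The other complement genes were taken from a list of 46, of which 45 were on the array and 36 were tested, each by its brightest probe. Of these, 3 rose (C1s2, Itgam and Calr), 2 fell (C8g and Cd59b) and 31 did not pass, beside 11.2% called among 16320 named genes (2.77% higher and 8.44% lower). Their median log2 change was -0.18, against -0.10 for all named genes, and 22 were below 0. Without enalapril 4 the count was 12 of 36, beside 23.9% of named genes, and without any 1 of the other arrays it was 1 to 2, with C8g called each time.

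Among the recognition molecules and C1 proteases, 1 of 9 tested rose, 0 fell, and the median was 0.06, and without enalapril 4 Fcna and C1rl fell as well. C1ra and C1s1, the proteases that C1q carries (named after their values were seen), had a log2 difference of 0.09 ± 0.15 and 0.15 ± 0.18 (SE, adjusted p 0.730 and 0.611 in limma). Their dimmer probes had 0.20 ± 0.16 and 0.35 ± 0.10 (SE, adjusted p 0.430 and 0.057 in limma), neither past the threshold. C1s2, a close copy of C1s1, read -4.68, -5.23, -5.55 and -5.44 with vehicle and -4.50, -4.18, -4.35 and -3.70 with enalapril. Every enalapril array was above every vehicle array, a rise of 1.04 ± 0.23 (2.06-fold, adjusted p 0.0313), at dim signal. The call was lost on leaving out any 1 array other than vehicle 1 or enalapril 4 (adjusted p 0.0529 to 0.0771), and under a normexp background correction with spots of very high local background repaired the change was 0.58 (0.0771). Fcna, a ficolin of the lectin pathway, had a log2 difference of -0.74 ± 0.25 (adjusted p 0.0918), the lectin protease gene Masp1 of 0.38 ± 0.16 (0.162) and C1rl of -0.25 ± 0.18 (0.382). Dimmer Masp1 probes had 0.57, 0.16 and -0.46, none past the threshold.

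Neither of the other alternative pathway genes passed, with a median of -0.51. Cfp encodes properdin, which stabilises the alternative convertase, and is made by myeloid cells. Its levels were 3.71, 3.62, 3.95 and 3.64 with vehicle and 3.09, 3.05, 3.06 and 3.61 with enalapril. The groups were apart by a margin of 0.01, with enalapril 4 beside the vehicle arrays as for C1q, and the log2 change was -0.53 ± 0.15 (adjusted p 0.0598 in limma). Cfd, factor D, an adipocyte product also called adipsin, had a log2 difference of -0.48 ± 0.19 (adjusted p 0.131). Both genes passed without enalapril 4.

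In the terminal pathway, which builds the membrane attack complex, 0 of 5 tested genes rose, 1 fell, and the median was -0.00. Without enalapril 4 the same 1 gene fell, beside 17.3% of all named genes lower in that setting. C8g, the gamma chain of C8, read -3.59, -3.53, -3.61 and -3.63 with vehicle and -4.32, -4.20, -4.16 and -4.10 with enalapril. The groups were well apart, with a fall of 0.60 on the log2 scale (1.52-fold, SE 0.09, adjusted p 0.0138 in limma). The sign of C8g turned under normexp background correction (0.45), as did that of Cd59b (0.44), and under the repaired normexp they were -0.08 and -0.16, neither past the threshold. C6 had a log2 difference of 0.19 ± 0.16 (adjusted p 0.457), C9 of 0.22 ± 0.29 and Hc, which encodes C5, of -0.03 ± 0.32, and C8a and C8b were too dim to test.

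Among the regulators 0 of 12 tested rose, 1 fell, and the median was -0.30. Without enalapril 4 there were 4 falls, beside 17.3% of all named genes lower in that setting. Cd59b, an inhibitor of the membrane attack complex, read -3.88, -4.14, -4.34 and -4.13 with vehicle and -5.18, -5.03, -5.39 and -4.41 with enalapril. It fell by 0.88 on the log2 scale (1.84-fold, SE 0.21, adjusted p 0.0363 in limma), a call that leaving out any 1 array except enalapril 4 ended (adjusted p 0.0538 to 0.0933). Its paralog Cd59a had a log2 difference of -0.31 ± 0.10 (adjusted p 0.0801), Vtn, vitronectin, of -0.62 ± 0.20 (0.0808) and Clu, clusterin, of -0.30 ± 0.11 (0.114). Cd59a and Cd59b are near copies, as are C1s1 and C1s2, and whether a probe reads both was not tested.

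Of 8 receptor genes tested 2 rose and 0 fell, with a median of -0.02. Without enalapril 4 the same 2 genes rose and 0 fell, beside 6.63% of all named genes higher in that setting. Itgam, the alpha chain of complement receptor 3 on myeloid cells, read -0.80, -0.82, -0.99 and -0.65 with vehicle and -0.08, -0.05, -0.40 and -0.43 with enalapril. All enalapril arrays were higher, by 0.58 ± 0.13 (1.49-fold, adjusted p 0.0324 in limma), and a dimmer Itgam probe differed by 0.49 (adjusted p 0.136). The Itgam change was 0.21 with the series matrix values, and its call also ended on leaving out any 1 array except enalapril 4 (adjusted p 0.0571 to 0.0839). Calr, calreticulin, a chaperone of the endoplasmic reticulum that also binds C1q at the cell surface, rose by 0.44 ± 0.11 (1.35-fold, adjusted p 0.0397), and its other probe by 0.74 (adjusted p 0.0238). With the series matrix values the Calr change was 0.07, and its call held without enalapril 4 or vehicle 3 and ended without any 1 of the other 6 arrays (adjusted p 0.0670 to 0.106). C5ar2, the second C5a receptor, had a log2 difference of -0.65 ± 0.24 (adjusted p 0.109) with no overlap between groups, and Cr2 of -0.51 ± 0.30 (0.293).

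**Figure D3:**
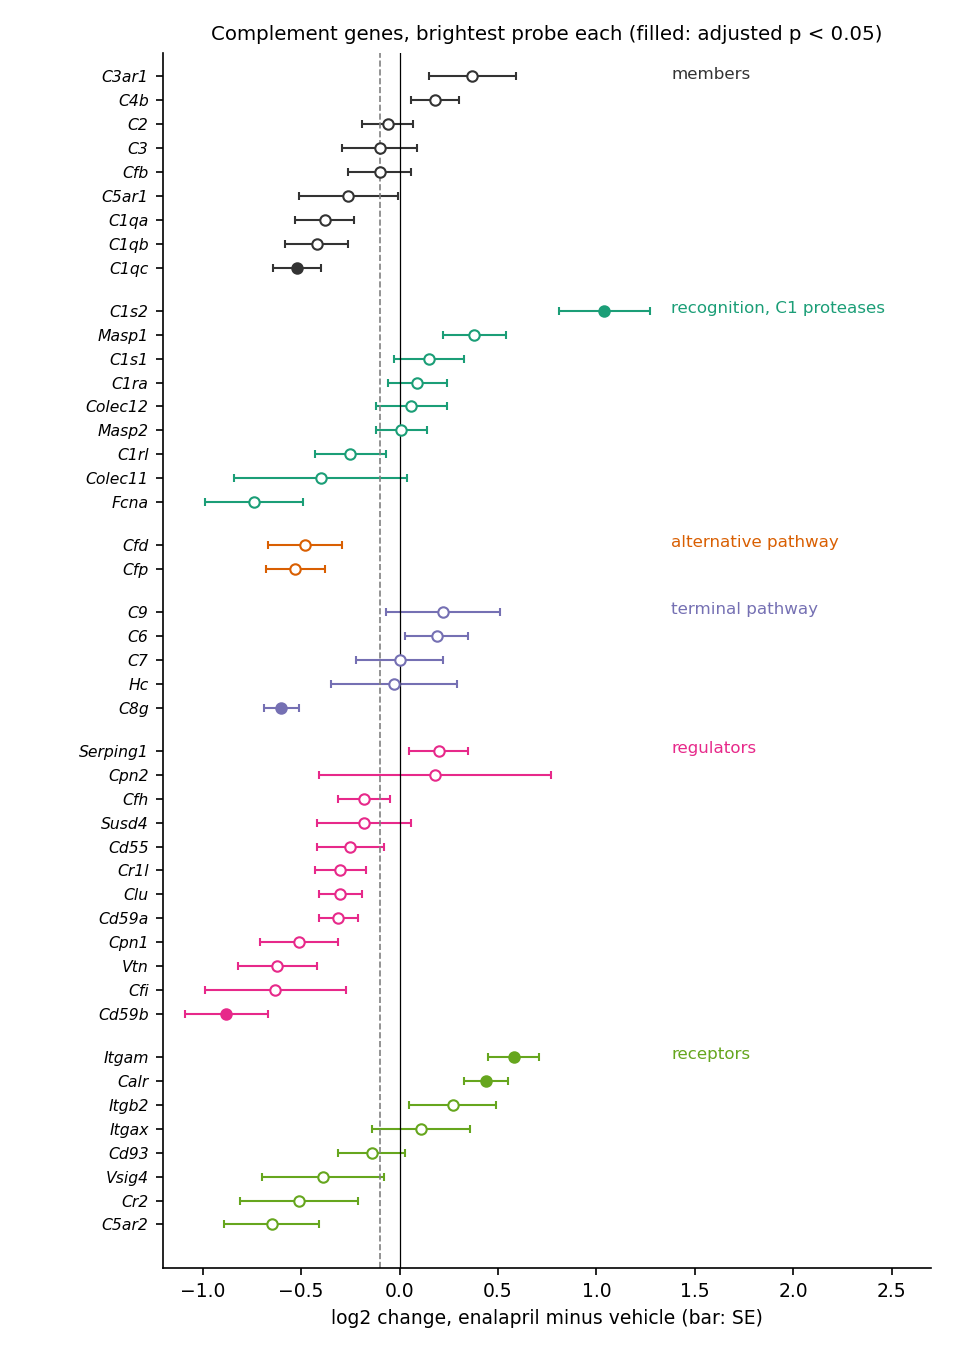
Log2 change (enalapril minus vehicle, bar: SE) of the 9 complement genes, labelled members, and of 36 other complement genes by function, each by its brightest probe. Filled points passed an adjusted p under 0.05, and the dashed line marks the median of all named genes, -0.10. The C1q chains sit at the low end of the members, while C2, C3, C4b and Cfb lie near the dashed line or above it.

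Macrophages are the best known tissue source of C1q, so a list of 15 macrophage genes was set beside the chains. Of these 0 rose, 1 fell (Folr2), 13 of 15 were below 0, beside 62.4% of all named genes, and the median log2 change was -0.30 beside -0.10. Under quantile normalization 8 of 15 were below 0 and the median was -0.10, where the median of all tested probes was -0.004. The 62.4% and -0.10 of all named genes belong to the main comparison and are not the background of that scaling. The summed level of the list, as the mean over its genes, was 3.0 to 3.27 in the vehicle arrays and 2.65 to 3.17 in the enalapril arrays, and no gene of the list was untested for dimness. Relative to the vehicle mean it was -0.33, -0.27 and -0.47 on enalapril 1 to 3 and 0.05 on enalapril 4, with enalapril 4 nearest to vehicle, as for the C1q chains. Its part in the C1q result was not tested.

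Folr2, a folate receptor of tissue-resident macrophages, read 2.90, 2.73, 3.18 and 3.17 with vehicle and 1.75, 2.19, 1.96 and 2.63 with enalapril. It fell by 0.86 on the log2 scale (1.82-fold, SE 0.20, adjusted p 0.0341 in limma), with enalapril 4 again nearest to vehicle. The Folr2 call held without enalapril 4 (adjusted p 0.00627) and ended without any 1 of the other arrays (0.0604 to 0.0869). Fcgr1, a high-affinity IgG receptor, had a log2 difference of -0.56 ± 0.17 (adjusted p 0.0687), the haemoglobin scavenger receptor gene Cd163 of -0.43 ± 0.13 (0.0691) and the adaptor gene Tyrobp of -0.50 ± 0.20 (0.132). Without enalapril 4 those 3 genes and Folr2 passed, 4 of 15, beside 23.9% of all named genes in that setting (6.63% higher and 17.3% lower). The 2 genes above 0, named after their values were seen, were Mrc1 (0.38 ± 0.16, adjusted p 0.148) and Mertk (0.04 ± 0.18). The genes of the list thus lay on both sides of 0.

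**Figure D4:**
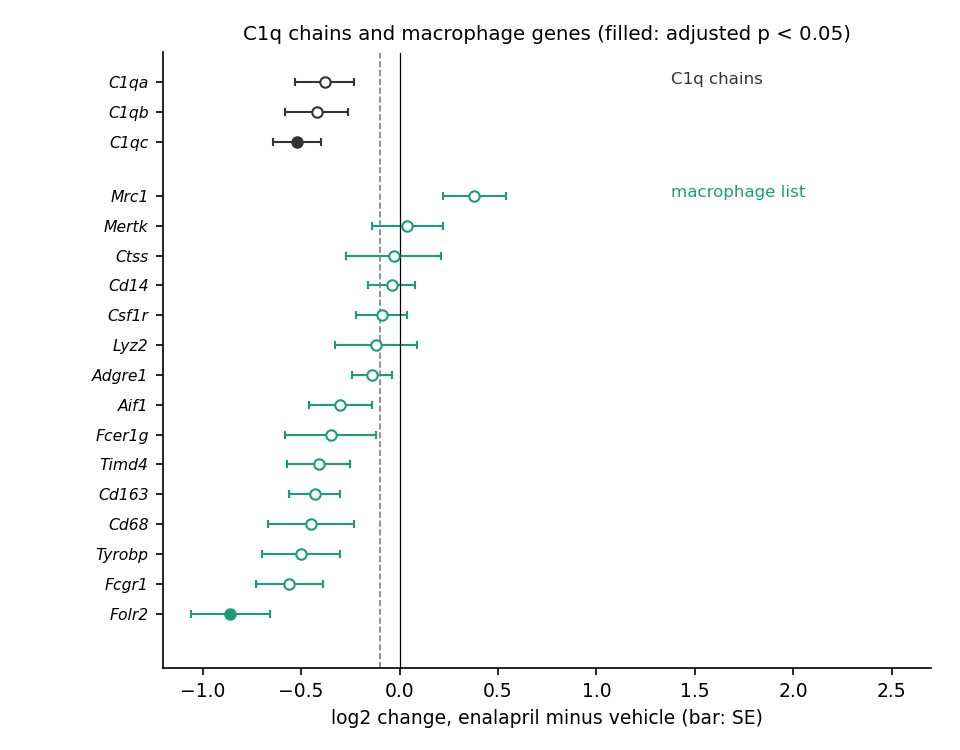
Log2 change (enalapril minus vehicle, bar: SE) of the 3 C1q chains and of 15 macrophage genes, each by its brightest probe. Filled points passed an adjusted p under 0.05, and the dashed line marks the median of all named genes, -0.10. Folr2 at -0.86 lies below the chains, and Mrc1 and Mertk lie above 0.

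For other cell types that skin can hold, genes were again counted by their brightest probe. Of all named genes, 62.4% were below 0, with a median of -0.10 and 11.2% called. Of 6 monocyte and neutrophil genes tested 2 were below 0, with a median of 0.35 and 0 calls, but without enalapril 4 Ccr2 and Cxcr2 rose. Of 10 Langerhans and dendritic cell genes 4 were below 0, with a median of 0.15 and 0 calls with or without enalapril 4. Of 8 T and B cell genes 7 were below 0, with a median of -0.19 and 1 call, a fall of Cd79b that ended without any 1 array except enalapril 4 (adjusted p 0.0605 to 0.0845). Mast cell genes (8 tested, median -0.10), fibroblast genes (8, 0.07), keratinocyte genes (8, 0.06) and endothelial genes (6, 0.06) had 0 calls. Without enalapril 4 the calls were 1 keratinocyte gene (Trp63, a rise) and 2 endothelial genes in opposite directions (Kdr rose and Emcn fell). The mast cell and fibroblast lists had 0 calls there. In that setting 23.9% of all named genes were called. Dimmer probes of Cd4 (0.94, adjusted p 0.0234 in limma), Col1a1 (0.89, 0.0365) and Trp63 (0.77, 0.0437), named after their values were seen, passed in the main comparison. The brightest Cd4 probe had -0.20 ± 0.14 (SE, adjusted p 0.371 in limma), so the Cd4 probes differed in sign.

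In the main comparison 11.2% of all named genes were called (2.77% higher and 8.44% lower), with a median of -0.10. Beside this, adipocyte genes fell in 3 of 7 (median -0.49) and skeletal muscle genes in 4 of 8 (median -0.73), tissues that lie under the dermis. Their mean deviations were -0.63, -0.47, -0.63 and -0.21 for fat and -0.57, -0.62, -0.62 and -0.67 for muscle on enalapril 1 to 4. Enalapril 4 thus stood nearer to vehicle for fat, as for C1q, and not for muscle. Leaving out each array in turn gave 0 to 4 calls for fat and 0 to 5 for muscle. Each was highest without enalapril 4, where 23.9% of all named genes were called. Of the hepatocyte genes, 4 were too dim to test and 2 were tested. Ahsg alone fell (-1.31 ± 0.21, SE), with or without enalapril 4, and its call was lost without vehicle 1 (adjusted p 0.0504 in limma). The part of these tissues in the complement values was not tested.

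The genes around Cfb, C2 and C4b in the class III region had 0 of 9 tested past the threshold, 6 below 0 and a median of -0.20. Without enalapril 4, 3 of the 9 fell (Stk19, Ehmt2 and Neu1), beside 17.3% of all named genes lower in that setting. In the main comparison 62.4% of all named genes were below 0, with a median of -0.10. Nelfe and Zbtb12, the direct neighbours of Cfb and C2, had a log2 difference of -0.20 ± 0.08 and -0.30 ± 0.11 (SE, adjusted p 0.156 and 0.119 in limma), Ehmt2 of -0.39 ± 0.13 (0.0848) and Neu1 of -0.38 ± 0.14 (0.114). Interferons can raise C2, C4 and factor B in many cells. Of 15 interferon response genes tested 0 passed, 12 were below 0 and the median was -0.13, with -0.62 ± 0.20 for Ifit3 (0.0838), 0.48 ± 0.17 for Tap1 (0.105), -0.35 ± 0.18 for Psmb9 (0.230) and -0.53 ± 0.28 for Isg15 (0.248). Ifit3 was the 1 gene of that list called without enalapril 4. A dimmer Ifit3 probe had -0.05 ± 0.18 in the main comparison (SE, adjusted p 0.885 in limma).

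The genes most like the C1q chains were sought by the correlation of their within-group deviations over the 8 arrays with the mean of the chains, among 15401 genes well above background on every array. The highest Pearson r were 0.997 for Cyp4f13, 0.995 for Vps25 and Sdf4, 0.993 for Pcca, 0.991 for Ndrg3 and 0.989 for Wdr24. These are descriptions over 8 arrays of one slide pair, in which enalapril 4 carries most of the spread. Cfp, named after its value was seen, was in place 8 with 0.988. The 15 macrophage genes ran from 0.877 for Csf1r, in place 411, and 0.799 for Folr2, in place 1042, down to 0.066 for Lyz2, in place 9159, and -0.077 for Timd4, in place 10459. The other members followed the chains less closely in value, with 0.558 for C4b, 0.533 for Cfb, 0.478 for C3, 0.077 for C2, 0.050 for C5ar1 and -0.422 for C3ar1.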

How the data were processed

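RNA from dorsal skin of 8 mice was hybridised to 8 1-colour (Cy3) Agilent arrays, 4 per group, grouped by the titles in the labels. RNA with a 28S/18S ratio above 1.5 was used, per the labels' protocols, which state 4 samples of each condition. The deposited scanner files hold a processed spot intensity, background-subtracted and detrended within each array by Feature Extraction 9.1.3.1, per the file headers (version 9.1 per the submitters' processing notes), and not scaled between arrays. The deposited flags of that software are other values and served here to filter spots. In the deposited series matrix the values are log2 and matched the processed intensity of the same arrays, uncentred, with medians from 6.39 to 7.30.

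Each array had 43379 spots that were not controls. Outlier spots were removed, spots of a probe were averaged, and 47 of 41174 probes were left out. Names came by accession (22951 probes), symbol (6659) or synonym (3096) from a RefSeq list for GRCm38.p6, and 1932 probes kept their array name while 6536 had none. Levels were log2 intensity minus the array's 75th percentile. Probes well above background on at least 4 of 8 arrays were tested with limma 3.58.1 in R 4.3.3 (package data.table, version 1.17.8), with the group as the only term, two-sided, Benjamini-Hochberg adjusted over 28580 probes. Fold values are 2 raised to the log2 change. C1q chain and probe differences used exact permutation over 70 splits in Python 3.11.15 with numpy 2.4.6 and pandas 2.3.3. Scripts were tested on simulated data. The number of arrays limits the precision.

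Every probe of the 9 complement genes is reported. In other lists up to 4 genes with the smallest p are named, with every other complement gene that passed, and the 6 genes most correlated with C1q. The members and lists were chosen with earlier results of these data known. 1 gene of the macrophage list is not reported here and was left out of its counts. Alternatives covered background correction, scaling, filters, the choice of probe, array weights, a replicate block, thresholds and leaving out each array.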

Additional observations from a re-analysis of the deposited data

Results flagged for a closer look

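Of 24 groups of 4 arrays screened over the 12 complement probes, 2 held an array whose gap to the other 3, as a share of the group's range, was above Dixon's critical value for 4 samples, which chance passes in about 1 of 20 groups. For C1qa in the enalapril group the highest array, enalapril 4 at 4.12, was away from the next at 3.66 by 0.939 of the range, and the lowest was 3.63. Enalapril 4 was also the highest enalapril array for C1qb and C1qc, without passing that value. For the dimmer C2 probe in the vehicle group the lowest array, vehicle 4 at 1.73, was away from the next at 1.81 by 0.836 of the range, in a group that reached only 1.83.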

How the results depend on the processing

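The 3 C1q chains stayed below 0 in all 20 alternatives run for each (C1qa -0.74 to -0.18, C1qb -0.79 to -0.28, C1qc -0.89 to -0.33), and the 9 probes of the other 6 genes passed in none. The 3 differences between chains passed in none of their 13 alternatives, which says little about stability, since the exact test can go no lower than 0.0286 before adjustment, or 0.125 with the replicate block. The median of all probes was -0.05 in the main comparison, 0.27 under normexp and -0.41 with the series matrix values, so signs under those 2 are relative to such shifts. The counts of calls over all probes, complement probes and other complement genes were 0, 0 and 0 under normexp, 280, 0 and 0 under centring on the E1A spike-in controls, 1548, 0 and 3 for the series matrix and 1392, 0 and 2 with no filter on dim probes. They were 8534, 3 and 10 with array weights, 38, 0 and 0 with the replicate block, and 1730, 0 and 3 with a fold of at least 1.5. Under the repaired normexp the counts were 1602 over all probes and 0 over other complement genes. At an adjusted p under 0.10 they were 5526 and 9. Quantile normalization gave 0 complement probes. Leaving out each array in turn gave 396 to 6991 probes, 0 to 3 complement probes and 1 to 12 other complement genes, each highest without enalapril 4. At an unadjusted p under 0.05 the limma comparison held 8408 probes, 3 of them complement probes. The share of calls that were higher was 36.6% in the main comparison, 46.6% under quantile normalization and 4.97% with the series matrix values. Same-numbered arrays did not deviate together (r -0.134 to 0.170), so the block is only a hint. Signs turned for C2 probe A_51_P497985 (quantile 0.13; without each array -0.13 to 0.03), C2 probe A_52_P428699 (normexp -0.02, series matrix -0.23), C3 probe A_51_P110301 (quantile 0.11; without each array -0.22 to 0.03), C3 probe A_52_P133594 (normexp 0.48), C4b (normexp -0.07, series matrix -0.18), Cfb (quantile 0.09), C3ar1 probe A_52_P81345 (normexp 0.42, repaired 0.05; without each array -0.22 to 0.01), C5ar1 (normexp 0.64, repaired 0.08), C8g (normexp 0.45) and Cd59b (normexp 0.44). The cause was not tested. A slide or scan block could not be fitted, because each holds 1 group, and each C1q chain has 1 probe, so averaging probes changes nothing there. C5ar1, the dimmer C3 probe, C1s2, C8g and Cd59b were limited by low signal over background.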
